A study of Rattus norvegicus with 13 samples.

Results

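Expression of the ErbB receptors and of the proteins that restrain ERK signalling below them was measured in irradiation-induced rat mammary carcinomas and in normal mammary tissue. The set was defined by gene name as Egfr, Erbb2, Erbb3, Errfi1, Spry1, Spry2, Spry4, Spred1, Dusp4 and Dusp6. Probes were assigned to these genes through the RefSeq accession printed beside each probe. Of the 10 genes, 8 had at least 1 probe, of 13351 named genes on the array, which gave 10 of its 41012 probes that were not controls. Egfr and Spry4 had 2 probes each, and Spry1 and Dusp6 matched no probe and were not analysed here.

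The tissue came from female Sprague-Dawley rats, an outbred stock that develops mammary tumours readily after irradiation. Carcinomas followed whole-body caesium gamma rays (2 Gy at 0.6 Gy per minute) given before puberty, at an age of 3 weeks (IR-3W, n = 4), or after puberty, at an age of 7 weeks (IR-7W, n = 6). Those rats ate a diet with 23.5% corn oil from 9 weeks of age, and palpable tumours were collected at 50 weeks. Normal mammary tissue came from rats that were not irradiated (normal, n = 3). The labels describe it in 1 place as age-matched and in another as taken at 7 weeks of age, so neither its age nor its diet relative to the carcinomas is settled. No genetic alteration is named for any group. Each array carried total RNA of 1 sample in a single colour, and whether samples of a group came from separate animals is not stated, so p-values cover only sample-to-sample spread, part of which may be technical.

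ErbB receptors are receptor tyrosine kinases of the epithelial surface that pair with one another when a ligand such as amphiregulin or a neuregulin binds, and pass the signal through RAS, RAF and MEK to the kinase ERK. ERK signalling in turn induces its own inhibitors, among them Sprouty proteins and dual-specificity phosphatases, so that transcripts of such inhibitors are often read as a record of pathway activity. In the mammary gland, Egfr is needed for ductal growth at puberty, and Erbb2 with Erbb3 forms the most potent of the receptor pairs.

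Among the 10 probes, 1 of Spry4 and that of Erbb3 differed between carcinomas and normal tissue, both upward. The Spry4 probe passed in both carcinoma groups, and Erbb3 passed in IR-7W alone. Egfr, Erbb2, Errfi1, Spry2, Spred1 and Dusp4 did not pass in any comparison. No probe of the set passed between the carcinoma groups, where Erbb3 and Dusp4 had the smallest p-values, both with lower means in IR-3W than in IR-7W. The Dusp4 signal cleared background on only 2 of 4 IR-3W arrays.

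Values are given as the log2 of the processed fluorescence minus the log2 of that array's 75th percentile, called the log2 value, so that 0 is the brightness of the 75th percentile spot. Levels of different probes are not set against each other. All 13 arrays were fitted together with limma across 29307 probes, and p-values were adjusted by Benjamini-Hochberg over all of them, with 0.05 as the threshold. In IR-3W against normal tissue, 1 of the 10 probes passed, upward, where 14.7% of all probes passed (9.3% upward and 5.37% downward). In IR-7W against normal tissue, 2 of the 10 probes passed, upward, where 20.8% of all probes passed (12.2% upward and 8.63% downward). Both comparisons use the same normal arrays. Between IR-3W and IR-7W 0 of the 10 passed in limma, where 0.788% of all probes did (0.624% higher and 0.164% lower in IR-3W), and 2 of the 10 had an unadjusted p under 0.05. The counts within the set were thus not far from the share on the array as a whole. The median difference over the 10 probes was -0.09, 0.31 and -0.28 in these 3 comparisons, against -0.01, -0.01 and -0.02 over all probes. The plot of differences with their intervals shows both called probes.

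**Figure D1:**
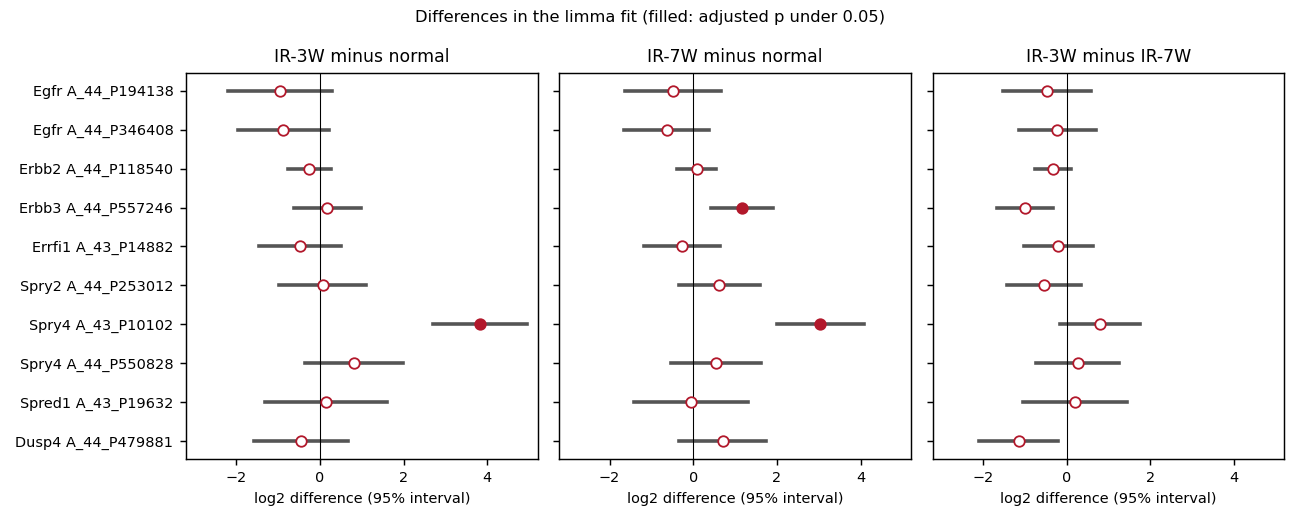
Log2 difference (x axis) of each probe (y axis, gene and probe name) in the limma fit, with its 95% interval as a line in 3 panels, one for each carcinoma group minus normal tissue and one for IR-3W minus IR-7W. Filled points passed an adjusted p of 0.05. Spry4 A_43_P10102 is filled in the first panel and, with Erbb3, in the second, and no point is filled in the third.

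Some features of the arrays touch every comparison with normal tissue. Carcinoma arrays were brighter, with 75th percentiles of 276 to 1242, against 82.3 to 179 on normal arrays. Of the spots, 58.0 to 71.0% were well above background on carcinoma arrays, against 48.7 to 54.2% on normal arrays. The fitted slope of the spike-in control spots was 0.76 to 0.84 on normal arrays. It was 0.92 to 0.94 in IR-3W and 0.95 to 0.99 in IR-7W, so it also differed between the carcinoma groups. The part of these features in the results was not tested. A separate slide and another scanner were used for the normal arrays, so scanner and group cannot be told apart. Among the carcinomas, only 1 slide held both groups, with IR-3W 1, IR-3W 2, IR-7W 1 and IR-7W 5. The other carcinoma slides held IR-3W alone or IR-7W alone, so slide and carcinoma group are partly confounded as well. Adipocyte markers fell in the carcinomas, 10 of 12 in IR-3W and 11 of 12 in IR-7W. Their summed signal, in multiples of each array's 75th percentile, was 15.6 to 458 in IR-3W, 14.9 to 101 in IR-7W and 457 to 527 in normal tissue, and IR-3W 3 held the highest mean log2 level of these markers among the IR-3W arrays. Of 15 luminal epithelial markers, 1 rose in IR-3W and 2 rose in IR-7W, with summed signals of 236 to 675 in IR-3W, 476 to 790 in IR-7W and 447 to 531 in normal tissue. All 15 were well above background on at least 1 array of each group. Of 13 fibroblast and matrix markers, 5 rose in IR-3W and 4 fell in IR-7W (488 to 1561 in IR-3W, 137 to 325 in IR-7W and 263 to 320 in normal tissue). Of 10 endothelial markers, 2 fell in IR-3W and 7 in IR-7W (12.8 to 86.2 in IR-3W, 8.70 to 16.0 in IR-7W and 36.4 to 49.8 in normal tissue). Of 9 basal markers, 4 fell in IR-3W and 1 in IR-7W (33.3 to 150 in IR-3W, 40.0 to 130 in IR-7W and 78.9 to 116 in normal tissue). Of 13 myeloid markers, 1 rose and 1 fell in IR-3W, and 4 fell in IR-7W (154 to 587 in IR-3W, 145 to 273 in IR-7W and 354 to 524 in normal tissue). Of 12 lymphocyte markers 0 passed in limma (2.89 to 16.0 in IR-3W, 3.42 to 12.6 in IR-7W and 11.0 to 13.7 in normal tissue), and of 8 skeletal muscle markers 1 fell in IR-7W (1.07 to 11.3 in IR-3W, 1.40 to 13.8 in IR-7W and 3.05 to 5.57 in normal tissue). Aqp7 of the adipocyte list stayed below background in all of IR-7W, as did Thy1 of the matrix list and Myh1 of the muscle list in all normal samples. In tissue of mixed cells, fewer cells of a type and less RNA per cell cannot be told apart, and the part of cell composition in the results on the receptors and inhibitors was not tested.

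**Figure D2:**
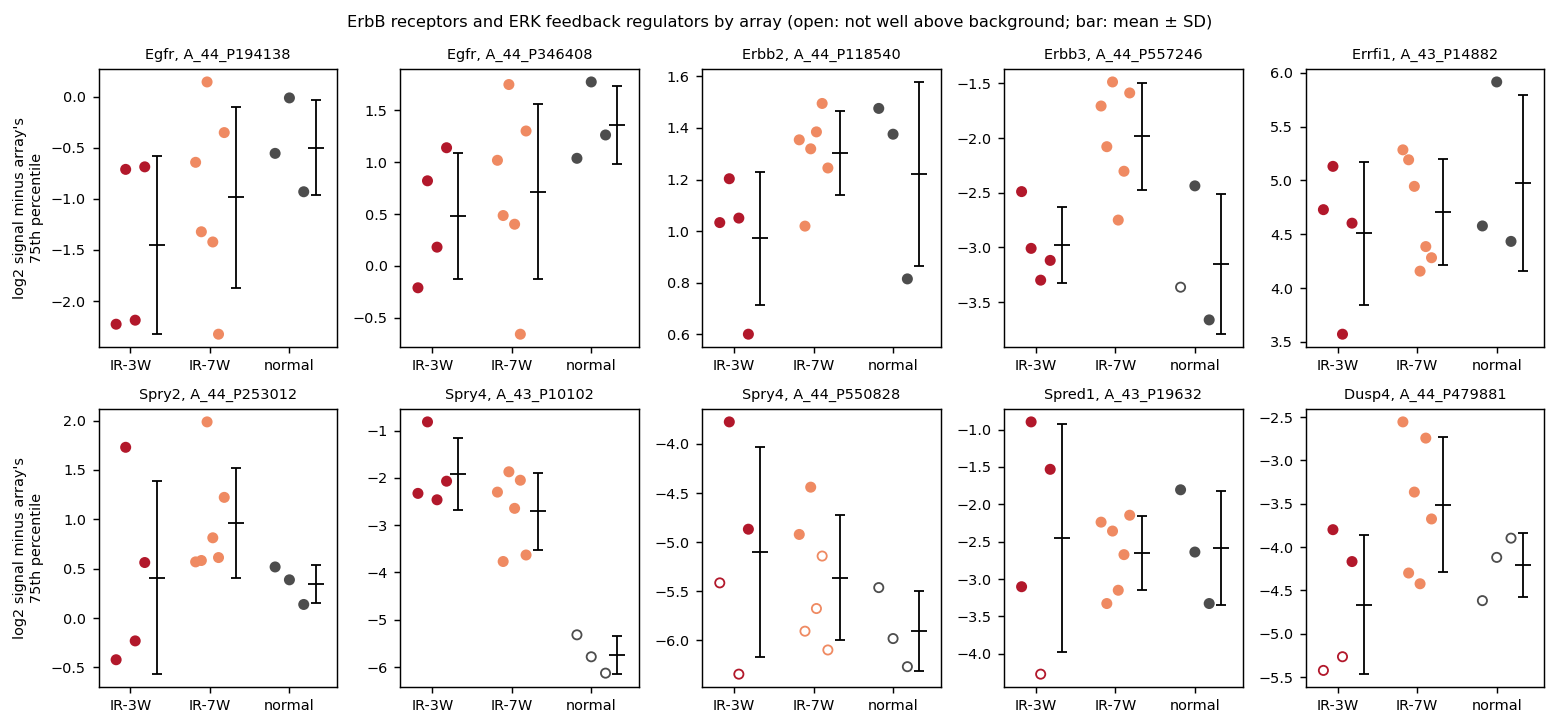
Log2 value (y axis, on the scale set by each array's 75th percentile) of each of the 10 probes on every array of IR-3W, IR-7W and normal tissue (x axis). Points are arrays, open where the probe was not well above background, and bars show the mean ± SD. Spry4 A_43_P10102 is the probe whose arrays of both carcinoma groups all lie above the 3 normal arrays.

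Spry4 is a Sprouty protein, an inhibitor that ERK signalling induces and that acts on the path from receptor tyrosine kinases to RAF. Its probe A_43_P10102 had log2 values of -2.33, -0.82, -2.46 and -2.07 in IR-3W carcinomas. The IR-7W carcinomas ranged from -3.77 to -1.87 with a median of -2.47. Normal tissue had -5.32, -5.78 and -6.13. All 10 carcinomas lay above all 3 normal samples, and the groups did not overlap. Groups without overlap were found for 24.7% of all probes in IR-3W against normal tissue, where this was the 1 such probe of the set, and for 28.7% in IR-7W, where it was 1 of 2. Between the carcinoma groups 0 of the 10 probes, and 2.93% of all probes, had no overlap. The probe was well above background on all 10 carcinoma arrays and on 0 of 3 normal arrays, so the normal level is only a bound. Set against the detection floor of the normal arrays, Spry4 was at least 3.20-fold higher in IR-3W and at least 1.85-fold higher in IR-7W. These bounds, 1.68 and 0.89 on the log2 scale, hold for this processing only. The adjusted p of 0.000412 and 0.000879 in limma do not test these bounds. They belong to the fitted differences in means (-1.92 and -2.71 against -5.74), which use normal values below background. The probe met the rule of being well above background on at least 3 arrays through carcinoma arrays alone.

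The unscaled signal of that probe was 50.0 to 595 in IR-3W, 50.1 to 312 in IR-7W and 2.06 to 2.55 in normal tissue, far below the floor of detection. The fitted log2 difference was 3.82 ± 0.52 (SE) in IR-3W and 3.03 ± 0.48 in IR-7W. With normexp on median spot signals followed by quantile normalization, which changes background, signal and scaling together, it was 1.26 in IR-3W and 0.84 in IR-7W, below those bounds, and both stayed past the threshold (adjusted p = 0.00485 and 0.0211 in limma). In all 22 alternative settings in which the probe was tested, it passed upward in both carcinoma groups. Not all of these could move the difference, which stays the same by construction when an array of the other carcinoma group is left out. The same holds with no filter on dim probes and with the brightest probe of each gene. The filter on all 13 arrays left the probe out. Between the carcinoma groups the difference was 0.79 (95% interval -0.16 to 1.74, IR-3W minus IR-7W), which did not pass (adjusted p = 0.507 in limma).

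The second Spry4 probe, A_44_P550828, stands for the same accession and did not pass. It had log2 values of -5.41, -3.78, -6.34 and -4.87 in IR-3W carcinomas. IR-7W carcinomas ranged from -6.10 to -4.44 with a median of -5.41, and normal tissue had -5.46, -5.98 and -6.27. The groups overlapped, and the signal cleared background on 2 of 4 IR-3W, 2 of 6 IR-7W and 0 of 3 normal arrays. The differences were 0.80 ± 0.54 in IR-3W (adjusted p = 0.35 in limma) and 0.54 ± 0.50 in IR-7W (adjusted p = 0.482 in limma), although quantile normalization passed the second (1.95, adjusted p = 0.034 in limma). Its carcinoma means (-5.10 in IR-3W and -5.36 in IR-7W) lay below the detection floor of the normal arrays (-3.60 on average). No bound on a rise could thus be given for this probe, and its lack of a call decides little. The call for Spry4 rests on 1 of its 2 probes. Both probes had their highest value in IR-3W 2 and their next in IR-7W 3, where both cleared background.

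The upstream sequences of Spry4 and Spry2 are shown because these are the genes of the set whose 6 IR-7W arrays all lay above the normal arrays for at least 1 probe, with a call for Spry4 and none for Spry2. Each is the 250 bases before the annotated start in RefSeq, build GRCr8, read on the gene's own strand. For Spry2 the farther upstream of its 2 listed starts was used. Capitals mark the ETS motif CCGGAA on either strand. Other forms of an ETS site, such as GGAA with other flanking bases, were neither searched nor marked.
Spry4 (chr18:30702547-30702796, minus strand): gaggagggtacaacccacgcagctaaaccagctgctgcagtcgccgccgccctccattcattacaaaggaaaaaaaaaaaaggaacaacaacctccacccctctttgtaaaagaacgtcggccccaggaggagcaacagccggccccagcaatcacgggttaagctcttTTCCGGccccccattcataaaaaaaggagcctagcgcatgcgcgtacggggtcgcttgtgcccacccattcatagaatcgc
Spry2 (chr15:89111927-89112176, minus strand): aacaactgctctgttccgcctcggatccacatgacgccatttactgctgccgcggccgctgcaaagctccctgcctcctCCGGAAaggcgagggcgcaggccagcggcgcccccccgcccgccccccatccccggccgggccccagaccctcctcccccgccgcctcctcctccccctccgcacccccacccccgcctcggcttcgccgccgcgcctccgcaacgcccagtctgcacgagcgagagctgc
ETS factors are among the transcription factors that ERK phosphorylates. The CCGGAA motif began 81 bases before the Spry4 start and 171 bases before the Spry2 start. The second Spry2 window, at its other start, held no match. The 6 genes of the set with both a probe and a promoter entry have 7 windows. Of these, 3 held CCGGAA, the other being that of Egfr, and windows without it may hold other forms of ETS site. Of 33469 promoter windows of the same length, 12.6% held it. The motif contains the dinucleotide CG, of which these 7 windows held 11 to 32, against a median of 5 over all windows. The shares are thus not matched for CG content. The AP-1 motif TGANTCA (6.34% of windows) and the CArG box (1.5% of windows), likewise searched on both strands, matched 0 of these 6 genes. A match describes the letters in a window and says nothing of binding.

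Spry2, the Sprouty paralogue that restrains receptor signalling in many epithelia, was well above background on every array. Its log2 values were -0.42, 1.73, -0.23 and 0.56 in IR-3W carcinomas. The IR-7W values ran from 0.57 to 1.99 with a median of 0.71, and normal tissue had 0.52, 0.39 and 0.14. The IR-3W arrays lay on both sides of normal tissue, while all 6 IR-7W arrays lay above it by a gap that was narrow beside their own spread. The difference was 0.06 ± 0.48 (95% interval -0.98 to 1.11) in IR-3W and 0.62 ± 0.45 (-0.35 to 1.59) in IR-7W, neither past the threshold (adjusted p = 0.949 and 0.36 in limma). Without IR-3W 2, the highest of its group, the IR-3W value turned to -0.38. Between the carcinoma groups it was -0.55 ± 0.41, and 0.063 within the slide that held both groups.

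Erbb3 encodes the neuregulin receptor, whose own kinase is weak and which signals through its partners. Its log2 values were -2.49, -3.01, -3.30 and -3.12 in IR-3W carcinomas. Those of IR-7W carcinomas lay between -2.75 and -1.49 with a median of -1.89, and normal tissue had -3.36, -2.44 and -3.66. Among the IR-7W arrays, 5 of 6 lay above all normal arrays, and IR-7W 4 lay below normal 2. The probe was well above background on all carcinoma arrays and on 2 of 3 normal arrays, with normal 1 below.

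Erbb3 rose by 1.17 ± 0.34 in IR-7W against normal tissue, at means of -1.99 ± 0.49 (SD, n = 6) in IR-7W and -3.15 ± 0.64 (SD, n = 3) in normal tissue (adjusted p = 0.0287 in limma). The IR-3W mean was -2.98 ± 0.35 (SD, n = 4), and its difference from normal tissue was 0.18 ± 0.37 (95% interval -0.62 to 0.97, adjusted p = 0.79 in limma). That IR-3W value turned to -0.0027 with median scaling, to -0.19 with array weights and to -0.079 without normal 3. In order of level IR-7W was highest, and the difference between IR-3W and normal tissue was within their spread. The direct difference between the carcinoma groups was -0.99 ± 0.31 (95% interval -1.67 to -0.32, IR-3W minus IR-7W), with an unadjusted p of 0.00722 and an adjusted p of 0.189 in limma. Of the 4 IR-3W arrays, 3 lay below all 6 IR-7W arrays. On the slide that held both groups, 2 arrays each, the difference was -0.74.

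The Erbb3 call lay near the threshold. It was lost without normal 1, normal 3, IR-7W 1, IR-7W 3 or IR-7W 6, each time with a difference of 0.91 to 1.11 and an adjusted p of 0.0522 to 0.13 in limma. It was also lost with median scaling (1.03, adjusted p = 0.0691), where the median of all probes moved to -0.14 and with quantile normalization (1.0, adjusted p = 0.0647). With normexp on median spot signals followed by quantile normalization it held at 0.55 (adjusted p = 0.0405 in limma). Luminal markers, whose median difference was 0.55 in IR-7W and -0.06 in IR-3W, stood beside it, and their part was not tested.

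**Figure D3:**
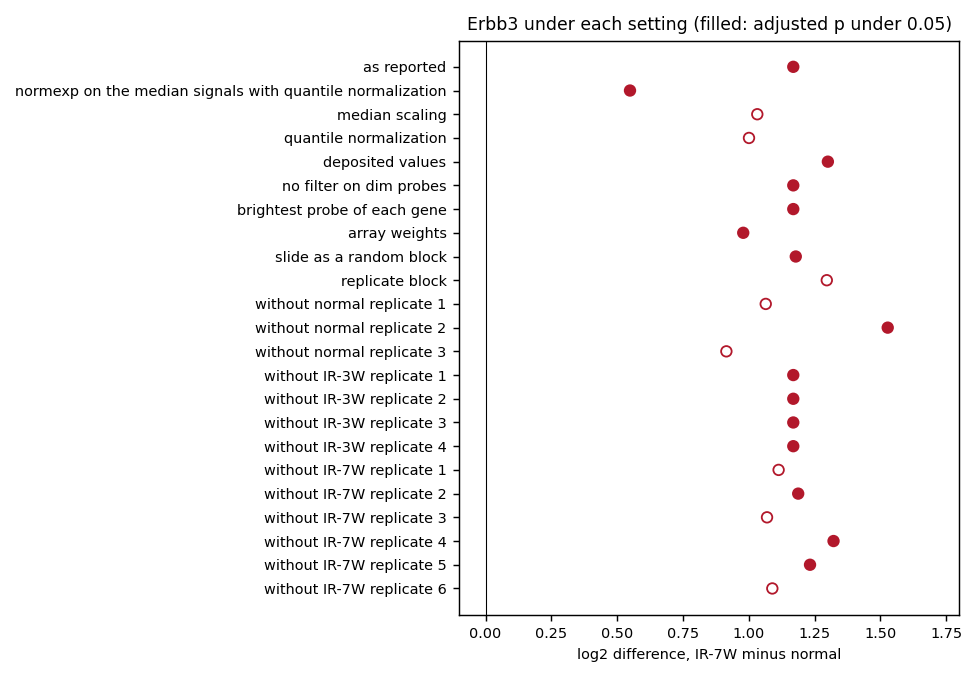
Log2 difference of Erbb3 in IR-7W minus normal tissue (x axis) in the reported fit and under each alternative setting in which it was tested (y axis). Filled points passed an adjusted p of 0.05. All values are above 0, from 0.55 to 1.53, and 8 points are open.

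Egfr encodes the receptor for epidermal growth factor, amphiregulin and transforming growth factor alpha, and had 2 probes of the same accession. Probe A_44_P346408 had log2 values of -0.21, 0.82, 0.18 and 1.14 in IR-3W carcinomas. In IR-7W carcinomas they ran from -0.66 to 1.75 with a median of 0.75, and normal tissue had 1.04, 1.77 and 1.26. Of the carcinomas, 3 of 4 IR-3W and 4 of 6 IR-7W arrays lay below all normal arrays for this probe, so the groups overlapped. Probe A_44_P194138, printed at 10 spots, had -2.23, -0.71, -2.19 and -0.69 in IR-3W carcinomas, -2.32 to 0.14 with a median of -0.98 in IR-7W, and -0.56, -0.01 and -0.93 in normal tissue.

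The Egfr differences from normal tissue were negative for both probes and did not pass. In IR-3W they were -0.87 ± 0.50 (95% interval -1.96 to 0.21, adjusted p = 0.27) and -0.95 ± 0.57 (-2.19 to 0.29, adjusted p = 0.292). In IR-7W they were -0.64 ± 0.47 (-1.65 to 0.37, adjusted p = 0.361) and -0.49 ± 0.53 (-1.63 to 0.66, adjusted p = 0.555), all from limma. Spots of 1 array differed by an SD of 0.03 to 0.16 log2, while the carcinomas of a group differed by an SD of 0.87 and 0.88 for the same probe. That spot noise leaves out labelling, hybridization and other differences between arrays. Egfr spanned 2.41 to 2.47 log2 across the 10 carcinomas, from IR-7W 5 at the low end to IR-7W 3 at the high end on both probes. IR-3W minus IR-7W was -0.23 ± 0.43 (95% interval -1.15 to 0.69) and -0.47 ± 0.48 (-1.51 to 0.58), neither past the threshold (adjusted p = 0.878 and 0.757 in limma). Within the shared slide the values were 0.12 and 0.014.

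Erbb2, which has no known ligand of its own and is the preferred partner of the other receptors, was also printed at 10 spots and spanned the narrowest range of the set among the carcinomas. Its log2 values were 1.03, 1.20, 1.05 and 0.60 in IR-3W carcinomas. In IR-7W carcinomas they lay between 1.02 and 1.495 with a median of 1.34, and normal tissue had 1.48, 1.38 and 0.82. The 3 groups overlapped, and the 10 carcinomas spanned 0.89 log2. The difference from normal tissue was -0.25 ± 0.23 in IR-3W (95% interval -0.76 to 0.26, adjusted p = 0.514 in limma) and 0.08 ± 0.22 in IR-7W (-0.39 to 0.55, adjusted p = 0.827 in limma). Both intervals lie between -0.76 and 0.55. IR-3W minus IR-7W was -0.33 ± 0.20 (-0.76 to 0.10, adjusted p = 0.544 in limma), and -0.31 on the shared slide. Spots of 1 array differed by an SD of 0.02 to 0.20, and IR-3W 4 was the lowest array.

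Errfi1 encodes MIG6, a scaffold that binds the kinase domain of ErbB receptors and blocks it. Its log2 values were 4.73, 5.13, 3.57 and 4.60 in IR-3W carcinomas. Across IR-7W carcinomas they ran from 4.16 to 5.28 with a median of 4.67, and normal tissue had 4.58, 5.92 and 4.43. Normal 2 stood above every other array, and the remaining arrays of the groups overlapped. The difference was -0.47 ± 0.45 in IR-3W (95% interval -1.45 to 0.51, adjusted p = 0.529 in limma) and -0.27 ± 0.42 in IR-7W (-1.17 to 0.64, adjusted p = 0.693 in limma). Without normal 2 both values turned positive, to 0.003 in IR-3W and 0.20 in IR-7W. The carcinoma groups differed by -0.20 ± 0.38 (adjusted p = 0.884 in limma).

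Spred1, a membrane protein that brings the RAS inactivator neurofibromin to RAS, varied most among the carcinomas. Its log2 values were -3.10, -0.90, -4.27 and -1.53 in IR-3W carcinomas, a span of 3.38 log2 that holds the extremes of all 10 tumours, with the lowest value below background. IR-7W carcinomas ranged from -3.33 to -2.15 with a median of -2.52, and normal tissue had -1.81, -2.64 and -3.33. All arrays but IR-3W 3 cleared background. The difference was 0.14 ± 0.68 in IR-3W (95% interval -1.32 to 1.60, adjusted p = 0.916 in limma) and -0.06 ± 0.63 in IR-7W (-1.41 to 1.30, adjusted p = 0.96 in limma). Without IR-3W 2 the IR-3W value was -0.38, and without IR-3W 3 it was 0.75. The carcinoma groups differed by 0.20 ± 0.57 (adjusted p = 0.931 in limma), which turned to -0.32 without IR-3W 2.

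Dusp4 encodes a nuclear phosphatase that removes the activating phosphates from ERK and related kinases. Its log2 values were -5.42, -3.80, -5.27 and -4.17 in IR-3W carcinomas. IR-7W carcinomas ranged from -4.42 to -2.56 with a median of -3.52, and normal tissue had -4.62, -4.12 and -3.90. The signal cleared background on 2 of 4 IR-3W arrays, on all 6 IR-7W arrays and on 0 of 3 normal arrays, and 4 of the 6 IR-7W arrays lay above all normal ones. It did not pass against normal tissue in IR-3W (-0.45 ± 0.52, adjusted p = 0.6 in limma) or IR-7W (0.70 ± 0.48, adjusted p = 0.328 in limma). With all normal arrays below background, the normal level is only a bound. IR-3W minus IR-7W was -1.15 ± 0.44 (95% interval -2.10 to -0.21), with an unadjusted p of 0.0203 and an adjusted p of 0.291 in limma. That difference was -1.96 on the shared slide, -2.26 with the deposited values (adjusted p = 0.059 in limma), which leave out dim entries, and -0.25 with normexp on median spot signals followed by quantile normalization. IR-3W 1 and 3 were the carcinoma arrays below background, so the IR-3W mean and this difference with its interval rest partly on values below background. The IR-3W values that cleared background, -3.80 and -4.17, lay within the IR-7W range.

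Across the carcinomas no array was highest or lowest for the whole set. IR-7W 3 was the highest of the 10 arrays for 4 probes, both of Egfr and those of Erbb3 and Spry2. IR-3W 2 was the highest for 3, both probes of Spry4 and that of Spred1. IR-3W 3 was the lowest for Erbb3 and Errfi1, and was the sole array below background for Spred1. IR-3W 3 was also the dimmest carcinoma array, with a 75th percentile of 276, and had the highest adipocyte marker level of the carcinomas. The part of either was not tested. IR-7W 5 was highest for Erbb2 and lowest for both Egfr probes. Its Erbb2 value of 1.495 lay close to the 1.38 of IR-7W 4, beside a spot SD of 0.20 on IR-7W 5, so that top rank is not firm.

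**Figure D4:**
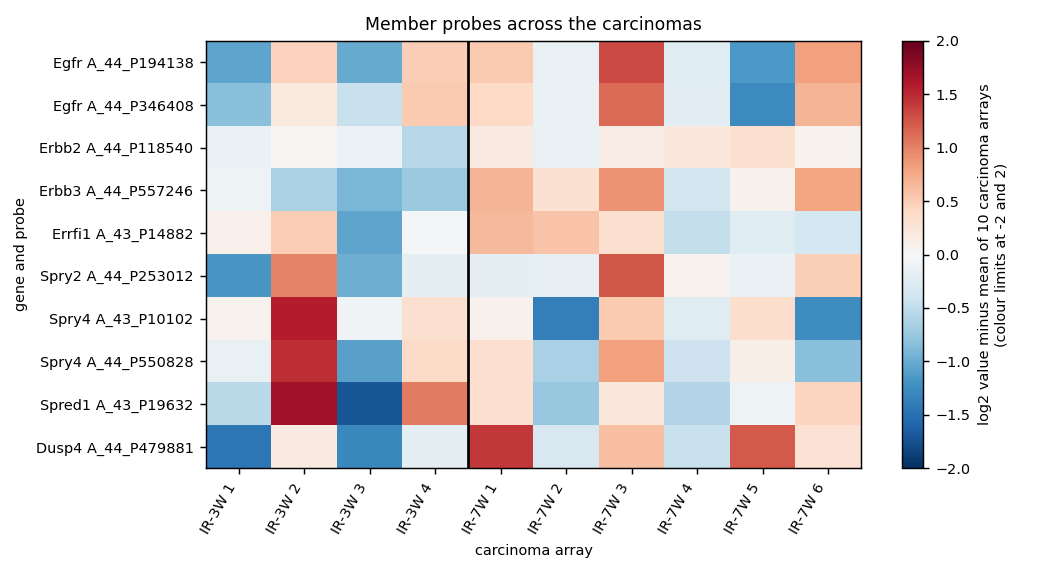
Log2 value of each probe (y axis) on each carcinoma array (x axis, IR-3W left of the line and IR-7W right of it) minus the probe's mean over the 10 carcinoma arrays, as colour; values below background have no order. Spred1 and both Spry4 probes are highest in IR-3W 2, and both Egfr probes are highest in IR-7W 3 and lowest in IR-7W 5.

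The genes whose profile lay closest to the called probes were found by the root-mean-square difference of mean-centred log2 values over the 13 arrays, among 10268 genes with a symbol. For Spry4 A_43_P10102 these were Epop (0.61 log2), Efnb1, a ligand of Eph receptors (0.65), and Ppp1r36 (0.66). Efnb1 was below background on all 3 normal arrays, as Spry4 was, and was at least 5.10-fold higher in IR-3W and at least 2.88-fold higher in IR-7W. The adjusted p of 3.35e-06 and 4.2e-06 in limma belong to its fitted differences of 4.64 and 3.82, not to these bounds. Like Efnb1, Epop was below background on all normal arrays, and Ppp1r36 was on 2 of 3. For Erbb3 they were Stx3, a syntaxin of the apical membrane (0.31), Ripk4, an epidermal kinase (0.34), and Chrnb1, a subunit of the muscle acetylcholine receptor (0.36). Ripk4 rose by 1.04 in IR-7W against normal tissue (adjusted p = 0.0103 in limma) and was lower in IR-3W than in IR-7W (difference -1.20, adjusted p = 0.0362 in limma). Stx3 and Chrnb1 did not pass in any comparison. Chrnb1 was below background on all 3 normal arrays and well above it on 3 of 4 IR-3W arrays, so its closeness rests partly on values below background.

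Other genes of the pathway were counted by their brightest probe, in lists, beside all genes with a symbol, of which 14.0% passed in IR-3W against normal tissue (6.55% higher and 7.49% lower). In IR-7W against normal tissue 20.6% passed (9.02% higher and 11.6% lower), and between the carcinoma groups 1.01% did (0.78% higher and 0.228% lower in IR-3W). Among 7 ErbB ligands, 0 passed in limma in IR-3W and 1 rose in IR-7W. This was Areg, amphiregulin, a ligand of Egfr, at 6.80 ± 0.68 (SD, n = 6) in IR-7W and 2.73 ± 0.50 (SD, n = 3) in normal tissue, a rise of 4.07 ± 0.54 (adjusted p = 0.000231 in limma). Areg was lower in IR-3W, at 4.01 ± 1.14 (SD, n = 4), than in IR-7W (difference -2.79 ± 0.49, adjusted p = 0.0277 in limma), in tumours whose Egfr levels overlapped.

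Among 17 adaptors and RAS, RAF, MEK and ERK genes, 0 passed in IR-3W in limma and 1 fell in IR-7W, the RAS relative Rras with -0.80 ± 0.25 (adjusted p = 0.0375 in limma). The median difference of that list was -0.06 in IR-3W and -0.17 in IR-7W. Among 5 other receptor and ligand-processing genes 1 fell in IR-7W, Cblb, a ubiquitin ligase of activated receptors, with -1.83 ± 0.46 (adjusted p = 0.0136 in limma). Among 20 genes of the PI3K and AKT pathway, 1 rose and 1 fell in IR-3W and 2 fell in IR-7W. Pdpk1, the kinase that activates AKT, fell in both, with -1.04 ± 0.30 in IR-3W and -1.33 ± 0.28 in IR-7W (adjusted p = 0.038 and 0.00552 in limma).

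Among 14 other negative regulators of ERK signalling, 4 rose in IR-3W, 2 rose in IR-7W and 0 fell in either, with median differences of -0.19 in IR-3W and 0.27 in IR-7W. Dusp16, a phosphatase of stress-activated kinases, rose by 1.01 ± 0.28 in IR-3W and by 1.25 ± 0.26 in IR-7W (adjusted p = 0.0312 and 0.00549 in limma). Pea15, which holds ERK in the cytoplasm, rose by 1.47 ± 0.32 in IR-3W (adjusted p = 0.00888 in limma). Spry3, another Sprouty gene, passed upward in both (adjusted p = 0.0108 and 0.0359 in limma), with all 3 normal arrays below background. It was at least 1.29-fold higher in IR-3W, and no bound could be given for IR-7W.

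Among 21 transcriptional targets of ERK signalling, 3 rose and 1 fell in IR-3W, and 2 rose and 1 fell in IR-7W. Egr2, an immediate early zinc finger factor, rose by 2.34 ± 0.36 in IR-3W and by 2.88 ± 0.33 in IR-7W (adjusted p = 0.00098 and 8.8e-05 in limma). Jun, a component of AP-1, rose by 1.23 ± 0.26 in IR-3W and by 0.94 ± 0.24 in IR-7W (adjusted p = 0.0078 and 0.0163 in limma). Myc, which drives growth and ribosome synthesis, fell in both, with -1.37 ± 0.28 in IR-3W and -0.81 ± 0.26 in IR-7W (adjusted p = 0.00639 and 0.0455 in limma). Between the carcinoma groups 0 of the 21 targets, 0 of the 14 other regulators and 0 of the 17 core genes passed in limma.

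Other receptor tyrosine kinases gave calls in IR-7W, where 3 of 19 rose and 4 fell, while 0 passed in IR-3W against normal tissue in limma. Ret, a receptor of glial-derived ligands, rose by 2.90 ± 0.66 in IR-7W (adjusted p = 0.00826 in limma). Fgfr3, well above background on 1 of 3 normal arrays, passed upward (adjusted p = 0.00338 in limma). Pdgfra, the receptor for platelet-derived growth factors on fibroblasts, fell by 1.65 ± 0.30 (adjusted p = 0.00196 in limma). Between the carcinoma groups Pdgfra and Pdgfrb were higher in IR-3W than in IR-7W, by 1.46 ± 0.27 and 1.97 ± 0.41 (adjusted p = 0.0342 and 0.0486 in limma). These are also members of the matrix marker list, of whose 13 genes 8 were higher in IR-3W.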

How the data were processed

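RNA of 13 samples was measured on Agilent rat arrays of 1 colour. The authors' deposited intensity per spot is the processed green signal of Agilent Feature Extraction 10.7.3.1 per the file headers, a linear fluorescence after background subtraction, with no scaling between arrays. The deposited value table holds log2 values whose scale and centring are not stated. They equalled the scanner log2 values minus each array's 75th percentile and minus the mean of the normal arrays, within 0.01 for 98.5 to 99.5% of entries after a constant offset per array of -0.03 to 0.01. That table, with column medians of -0.20 to 0.05 and 29.4 to 52.2% blanks, served as an alternative only.

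Control spots and outlier flags were left out, spots of a probe were averaged, and 29307 probes well above background on at least 3 arrays were fitted with limma 3.58.1 in R 4.3.3. A probe of several spots counted as well above background where at least 50% of them were. Missing spots were dropped. Of 41012 probes, 16815 matched a symbol of the RefSeq table of GRCr8, and the array design uses another build, so no probe coordinates are given. Where all arrays of a group were below background for a probe, a bound is given against the higher of its own signal and the lowest signal called well above background on each array. It covers the detection floor alone, and the number of arrays limits precision.

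The fit was tested on simulated data of 28770 probes, of which 28570 were left unchanged in each comparison. It recovered 6, 4 and 24% of log2 changes of 1, and 42, 60 and 62% of log2 changes of 2. These are in the order IR-3W against normal, IR-7W against normal and IR-3W against IR-7W. The share of probes changed was far below the 14.7 and 20.8% called against normal tissue, so recovery in those comparisons may differ from these rates. Sensitivity settings comprised background, scaling, filter, probe choice, array weights, slide, replicate number and leaving out arrays. The normexp setting used median spot signals (offset 50), since mean signals were not used here, and was followed by quantile normalization, so that it changes background, signal and scaling together. All members of the set are named. From each pathway list at most 3 passing genes per comparison with the smallest p were eligible to be named, and the 3 nearest profiles per called probe. The members and lists were chosen with earlier results of these data known. Python 3.11.15 was used for tables and figures.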

Additional observations from a re-analysis of the deposited data

How the results depend on the processing

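Of the 689 values of single probes under alternative settings, 646 kept their direction and their side of the threshold. Another 8 were no longer past the threshold (all Erbb3 in IR-7W) and 1 was newly past it (Spry4 A_44_P550828 in IR-7W, quantile normalization). The remaining 34 changed sign, none of them a called difference. Some settings leave a difference unchanged by construction, such as leaving out an array of the group outside the comparison. The 646 are thus not independent checks. The number of probes called in IR-3W against normal tissue was 1, and 0 of the 5 probes left with the filter on all 13 arrays. That filter drops Spry4 and Erbb3, so neither was tested under it. In IR-7W it was 2, against 0 of 5 with that filter, 1 with median scaling, 1 with the replicate block, and 1 to 2 when single arrays were left out. It stayed at 0 between the carcinoma groups. The replicate numbers gave no sign of a pairing of the samples. Deviations of same-numbered arrays from their group means correlated at -0.22 to 0.08 over 10 pairs, and 0 of 11 arrays correlated best with its own number. Groups this small cannot exclude a pairing. Under the replicate block the Erbb3 difference in IR-7W was 1.30 (adjusted p = 0.0947 in limma) and all-probe calls were 1869, 2662 and 0.

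Sign changes against normal tissue were, in IR-3W, Dusp4 0.0059 with normexp and quantile normalization, Spred1 -0.039, Spry2 -0.12 and Erbb3 -0.0027 with median scaling, Spred1 -0.095 with quantile normalization and -0.24 with the deposited values, and Erbb3 -0.19 with array weights. In IR-7W they were Errfi1 0.064 with normexp and quantile normalization and 0.026 with the replicate block, Erbb2 -0.056 with median scaling and -0.018 with array weights, and Spred1 0.023 with array weights. Between the carcinoma groups they were Spry4 A_44_P550828 -0.012 with quantile normalization and -0.28 with the deposited values, and on the shared slide Errfi1 0.095, Egfr 0.014 and 0.12 and Spry2 0.063. Leaving out single arrays gave, in IR-3W, Errfi1 -0.74 to 0.003, Spred1 -0.38 to 0.75, Spry2 -0.38 to 0.34 and Erbb3 -0.079 to 0.53. It gave, in IR-7W, Spred1 -0.43 to 0.33, Errfi1 -0.54 to 0.20 and Erbb2 -0.12 to 0.21, and between the carcinoma groups Spred1 -0.32 to 0.81, Spry4 A_44_P550828 -0.18 to 0.68 and Errfi1 -0.41 to 0.11. The cause was not tested.

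Over all probes, calls of 4298, 6099 and 231 in the 3 comparisons became 12265, 15316 and 126 with no filter for dim probes. Array weights gave 8877, 10969 and 1110, a random slide block 5296, 7501 and 390 (correlation -0.058), and the filter requiring all 13 arrays 2963, 4010 and 238. There were 152 between the carcinoma groups with the deposited values and 32 with the carcinoma arrays alone. Leaving out 1 array gave 2416 to 5736, 3530 to 7726 and 33 to 673. The split of higher and lower calls in IR-3W was 2724 and 1574, against 2639 and 2401 with normexp and quantile normalization and 2096 and 2420 with median scaling. In IR-7W it was 3570 and 2529, against 2913 and 3299 with median scaling, which moved the median of all probes to -0.19 and -0.14. On the normal arrays, Spry4 and Dusp4 lay below background, which limits their comparisons to bounds.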

Other observations

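In the 20 groups of 4 or 6 arrays examined over the 10 probes, Dixon's test set 0 arrays apart from the rest of their group.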
